A study of Mus musculus with 8 samples.

Results

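The genes described are 8 direct targets of the transcription factor NRF2, chosen by name: Hmox1, Gclm, Gclc, Nqo1, Txnrd1, Srxn1, Slc7a11 and Osgin1. The choice was made with earlier results of these data known. Of these 8 genes, 7 are listed in all 3 gene tables, among 10690 genes listed in at least 1. Osgin1, on chr8:121958024-121970156 of mm9, has no reads or PASs in the tables used here and enters the sequence searches alone. In these tables the lowest count of a gene in a library was 50 reads. The libraries came from NIH3T3 cells, an established line of mouse fibroblasts, cultured in medium with calf serum. In the NT condition the cells were untreated, and in the AS condition they were exposed to 250 μM sodium arsenite for 1 h. RC4 and RC8 cells had the same exposure and then recovered in regular medium for 4 h and 8 h. Total RNA of each condition gave 1 QuantSeq FWD library, an assay that reads the 3′ end of polyadenylated RNA. The labels give no replicate libraries, so the values below carry neither a test nor a P value and the spread between cultures is not known.

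NRF2, encoded by Nfe2l2, is the main activator of the antioxidant and detoxifying genes of most tissues. In unstressed cells KEAP1 delivers it to the proteasome, and electrophiles and arsenite, which react with cysteines of KEAP1, let it accumulate. NRF2 then pairs with a small MAF protein on antioxidant response elements, whereas BACH1 occupies some of the same elements and keeps genes such as Hmox1 low. The products of the 7 listed genes degrade haem, supply and make glutathione, reduce thioredoxin and peroxiredoxins and detoxify quinones.

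The libraries held 22.4 M to 23 M reads on genes. Levels are given as RPM, the number of reads of a gene per 1000000 reads on the genes of a table, and a read of this assay stands for the 3′ end of 1 RNA, so that levels need no division by length. A gene was counted as higher or lower when its RPM differed at least 2-fold from NT. Intervals are 95% exact intervals of the counts. They cover counting error only, and molecules amplified by PCR may be read more than once, as the reads carry no molecular identifiers. All 3 comparisons share the NT library. Counts come in 2 columns per library, whose nature is not given in the sources used here and which were added. In 117 to 129 genes per table a column was 0, among them 31 of the 65 genes at least 2-fold higher in AS, but no NRF2 target gene had such a column. Without such genes the shares of all genes at least 2-fold higher were 0.329%, 3.43% and 2.55% for AS, RC4 and RC8. The median gene had a log2 ratio of −0.04 for AS, −0.30 for RC4 and 0.01 for RC8, so the ratios in RC4 stand 0.30 higher when set against the median gene. All 9 fibroblast markers of a fixed list were among the listed genes, with a summed level of 4968 RPM in NT, 4958 RPM in AS, 3963 RPM in RC4 and 3422 RPM in RC8. Of 10 markers of epithelial, haematopoietic and endothelial cells, 1 was listed, Cd14, at 21.2 RPM in NT and 8.65 RPM and 8.18 RPM in RC4 and RC8. The part of these marker differences in the results below was not tested.

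At the end of the arsenite exposure, Hmox1 was the single NRF2 target gene at least 2-fold higher than in NT, 1 of 7, against 0.622% of all genes. After 4 h of recovery 5 of 7 were at least 2-fold higher, Hmox1, Slc7a11, Srxn1, Txnrd1 and Gclc, by 2.93-fold to 32.1-fold, against 3.69% of all genes. After 8 h 4 of 7 were, Slc7a11, Hmox1, Srxn1 and Txnrd1, by 2.02-fold to 7.87-fold, against 2.97% of all genes. None of the 7 was at least 2-fold lower in any comparison, where the shares of all genes were 3.22% (AS), 13.4% (RC4) and 3.53% (RC8). The 7 genes had a median log2 ratio of −0.08 (AS), 2.07 (RC4) and 1.01 (RC8), beside −0.04, −0.30 and 0.01 for all genes. The plot of levels by library shows that 5 genes peaked in RC4, while Nqo1 was highest in RC8. The gene count of Gclm lay at nearly the same level throughout. That count is uncertain, because most of its reads were assigned to an intronic sequence with many copies in mm9. Reads assigned to the 3′-most exon of Gclm were 2.09-fold above NT in RC4 and 1.93-fold in RC8, as described below.

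**Figure D1:**
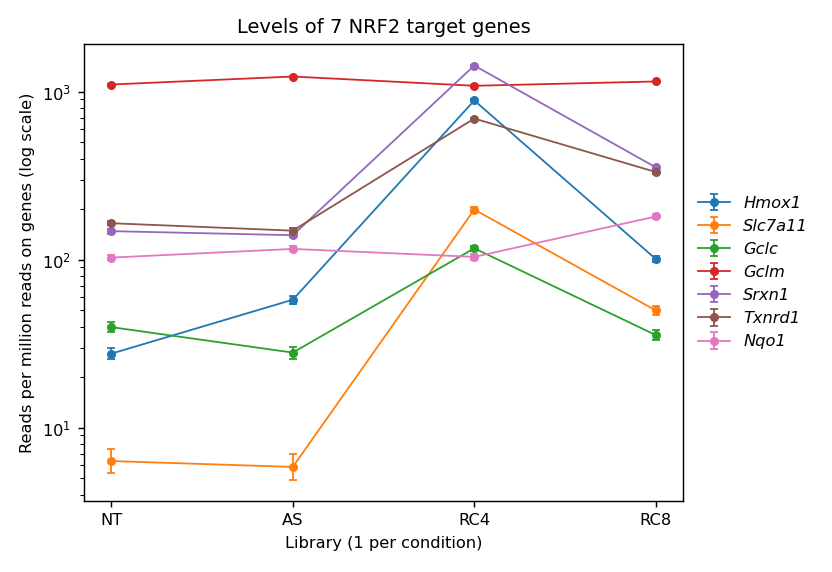
RPM (log axis) of the 7 listed NRF2 target genes in the NT, AS, RC4 and RC8 libraries, 1 library per condition. Points are the measured levels, bars the 95% counting intervals, and lines join the libraries of a gene. Hmox1, Slc7a11, Srxn1, Txnrd1 and Gclc are highest in RC4, and Nqo1 is highest in RC8 at 181 RPM. Gclm, drawn by its uncertain gene count, stays between 1086 and 1233 RPM.

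Hmox1 encodes haem oxygenase 1, the inducible enzyme that splits haem into biliverdin, iron and carbon monoxide. It lies on chr8:77617490-77624495 of mm9, on the plus strand. Its level was 27.6 RPM in NT, 57.8 RPM in AS, 888 RPM in RC4 and 101 RPM in RC8. It was the only one of the 7 genes past 2-fold at the end of the exposure, at 2.09-fold (1.9 to 2.31), with the threshold inside the interval. The RC4 level was 32.1-fold that of NT (29.7 to 34.8), the gene's rank being 2 of 10081 genes ordered from the highest ratio. Between RC4 and RC8 it was 8.78-fold lower (8.41 to 9.17), the largest such ratio of the 7, and it remained 3.66-fold above NT (3.35 to 4.01) in RC8.

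Antioxidant response elements share the core TGACNNNGC, and the form TGACTCAGC also holds the letters TGACTCA of the AP-1 site. These letters were searched on both strands of the 12 kb before each annotated gene start, a length that takes in the distal enhancers for which Hmox1 is known. Hmox1 had 12 core matches, where the median of 9524 genes was 4 and 0.451% of genes had as many. Of the 12 matches, 4 read TGACTCAGC, as many as in 0.063% of genes, whereas 17.7% of genes had any. This form is that of the Hmox1 clusters, and the window was set to take in the known enhancers. The shares given for Hmox1 are therefore a description and not a test. Both clusters that hold these 4 matches are shown, with core matches in capitals. All of them lie on the minus strand, so that the core appears as GCNNNGTCA. The first stretch is chr8:77607830-77607929 of mm9, 9660 to 9561 nt before the gene start, with 3 matches, and the second is chr8:77613580-77613669, 3910 to 3821 nt before it, with 2.
Hmox1 distal stretch: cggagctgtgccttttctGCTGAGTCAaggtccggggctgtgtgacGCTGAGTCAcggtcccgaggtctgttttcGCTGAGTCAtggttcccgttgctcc
Hmox1 nearer stretch: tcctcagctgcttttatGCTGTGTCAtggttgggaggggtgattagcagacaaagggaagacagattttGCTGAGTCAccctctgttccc
A match is a string of letters and not a measured binding site. The last 1 kb before the start of Hmox1 had 0 core matches, as had 5 other members, while 31.4% of all genes had at least 1.

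Slc7a11, Gclc and Gclm act in glutathione synthesis. Slc7a11 encodes the cystine importer subunit xCT, which brings in the cysteine precursor of glutathione, and lies on chr3:50168858-50247535 of mm9, on the minus strand. Its level was 6.33 RPM in NT, 5.84 RPM in AS, 199 RPM in RC4 and 49.9 RPM in RC8. It was the lowest of the 7 in NT, with 143 reads, and AS lay within counting error of NT at 1.08-fold lower (0.85 to 1.39). The RC4 level was 31.4-fold that of NT (26.6 to 37.3), with the rank 3 of 10081 genes just behind Hmox1. In RC8 it was still 7.87-fold higher (6.61 to 9.44), the rank 2 of 10441 genes, although 3.99-fold lower than in RC4 (3.74 to 4.26).

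Gclc encodes the catalytic subunit of glutamate-cysteine ligase, the enzyme of the rate-limiting step of glutathione synthesis, and lies on chr9:77602342-77642292 of mm9, on the plus strand. Its level was 39.7 RPM in NT, 28 RPM in AS, 117 RPM in RC4 and 35.6 RPM in RC8. Gclc thus had its own lowest level in AS, at 1.42-fold below NT (1.28 to 1.57), and was 2.93-fold above NT in RC4 (2.72 to 3.16). In RC8 it was 1.12-fold below NT (1.01 to 1.23), so that of the 5 genes past 2-fold in RC4 it alone was not above NT in RC8. In its 12 kb upstream window 2 of 3 core matches read TGACTCAGC, which 1.83% of genes equalled or exceeded. They are shown as the other member with this form, at chr9:77598537-77598576 and chr9:77600310-77600349 of mm9, with the match in capitals.
Gclc farther stretch: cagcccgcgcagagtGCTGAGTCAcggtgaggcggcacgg
Gclc nearer stretch: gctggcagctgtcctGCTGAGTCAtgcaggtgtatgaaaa
The other 6 members had 0 matches of this form, with 2 to 8 core matches in the same window.

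Gclm encodes the modifier subunit of the same ligase and lies on chr3:121948475-121972902 of mm9, on the plus strand. Its gene count gave 1105 RPM in NT, 1233 RPM in AS, 1086 RPM in RC4 and 1152 RPM in RC8. AS, RC4 and RC8 lay within 1.12-fold of NT, and by this count the gene was the highest of the 7 in NT, AS and RC8. Most of these reads were however assigned to a polyadenylation site (PAS) in intron 2, chr3:121958529-121962124. In the RC4 table the intronic PAS at position 121960356 held 94.5% of the reads in NT (Wilson interval 94.2 to 94.8) and 88.4% in RC4 (88 to 88.8), and in the AS table it was the only PAS listed.

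The sequence in front of this intronic PAS is a copy of the Ppia messenger RNA, which encodes the abundant prolyl isomerase cyclophilin A. Of 486 nt aligned with the Ppia transcript, 484 were identical. The last 300 nt before the PAS matched 20 other places of mm9 at 95% identity or more over at least 200 nt, and the closest at the Ppia locus, chr11:6319530-6319815, was 99.7% identical. The last 200 coding bases of both sequences, up to the stop codon, are shown so that the copy can be compared with its source. The copy spans chr3:121959941-121960140 of mm9, and capitals mark the single base at which they differ.
Gclm intron copy: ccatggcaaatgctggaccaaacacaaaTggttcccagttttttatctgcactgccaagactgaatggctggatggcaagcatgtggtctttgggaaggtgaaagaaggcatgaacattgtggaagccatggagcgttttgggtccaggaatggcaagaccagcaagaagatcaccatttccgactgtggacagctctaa
Ppia transcript: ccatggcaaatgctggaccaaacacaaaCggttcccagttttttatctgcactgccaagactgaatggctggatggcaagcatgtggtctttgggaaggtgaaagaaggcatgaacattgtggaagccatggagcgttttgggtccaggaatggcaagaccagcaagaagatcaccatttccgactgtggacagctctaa
The 30 bases that end at the intronic PAS, chr3:121960327-121960356, end in 16 genomic A bases, in capitals.
Gclm intronic PAS: aaaaactaaataagAAAAAAAAAAAAAAAA
Ppia itself was listed at 15 RPM in NT, with 338 reads, at a PAS past the copied stretch. None of the other 15 PASs of the members had a second place in mm9 by this criterion. The gene count of Gclm is therefore uncertain, because the sequence that most of its reads were assigned to occurs in many copies.

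At the PAS of the 3′-most exon of Gclm, position 121969855, the assigned reads gave 60.4 RPM in NT and 126 RPM in RC4, which is 2.09-fold (1.96 to 2.23). In the RC8 table the same PAS gave 60.2 RPM in NT and 116 RPM in RC8, or 1.93-fold (1.81 to 2.06). At the intronic PAS the corresponding ratios were 0.918-fold (0.901 to 0.935) and 0.992-fold (0.974 to 1.01). Thus the ratios at the 2 PASs assigned to the gene differed beyond counting error in both recovery libraries. Counted at its 3′-most exon, Gclm would be a sixth gene past 2-fold in RC4. The AS table assigns no read to this PAS. Reads at a PAS are the deposited fraction times the gene count, and their intervals leave out the error of the assignment.

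**Figure D2:**
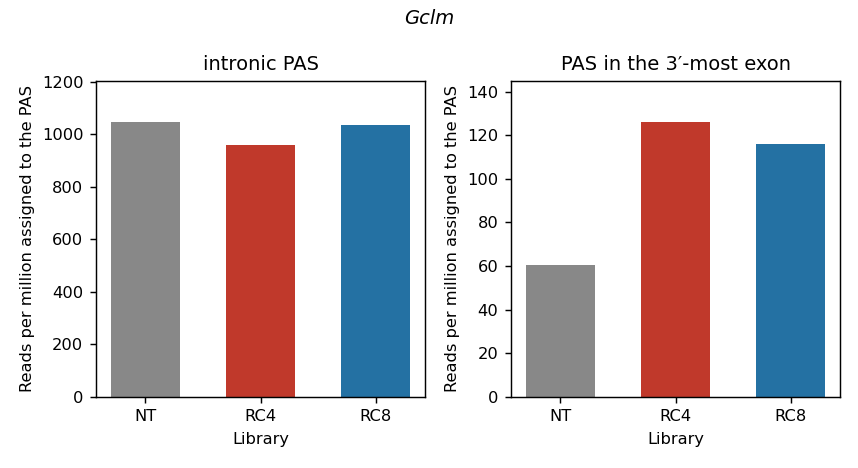
RPM of Gclm assigned to its intronic PAS (left) and to the PAS of its 3′-most exon (right) in the NT, RC4 and RC8 libraries, 1 library per bar, with the NT value of the RC4 table; both vertical axes start at 0 and differ in scale. The intronic bars lie between 960 and 1046 RPM, while those of the 3′-most exon are 60.4, 126 and 116 RPM.

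Srxn1 and Txnrd1 act on protein thiols. Srxn1 encodes sulfiredoxin, which repairs overoxidised peroxiredoxins, and lies on chr2:151931252-151937112 of mm9, on the plus strand. Its level was 148 RPM in NT, 140 RPM in AS, 1434 RPM in RC4 and 355 RPM in RC8. With 9.65-fold over NT (9.31 to 10) it held the rank 8 of 10081 genes in RC4 and the highest level of the 7. In RC8 it was 2.4-fold above NT (2.3 to 2.5), 4.03-fold lower than in RC4 (3.94 to 4.13).

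Txnrd1 encodes the cytosolic thioredoxin reductase, a selenoprotein that keeps thioredoxin reduced at the expense of NADPH, and lies on chr10:82296696-82360469 of mm9, on the plus strand. Its level was 165 RPM in NT, 149 RPM in AS, 693 RPM in RC4 and 333 RPM in RC8. The RC4 level was 4.19-fold that of NT (4.04 to 4.34). The RC8 level was 2.02-fold (1.94 to 2.1), with the threshold inside the interval, and the second count column alone put its log2 ratio at 0.97, under 2-fold. It was 2.08-fold lower in RC8 than in RC4 (2.02 to 2.14), the smallest such ratio of the 5 genes that peaked in RC4.

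Nqo1 encodes NAD(P)H quinone dehydrogenase 1, which reduces quinones in a single step, and lies on chr8:109912125-109927106 of mm9, on the minus strand. Its level was 103 RPM in NT, 116 RPM in AS, 104 RPM in RC4 and 181 RPM in RC8. The RC4 ratio of 1-fold (0.946 to 1.06) was within counting error of NT, and the RC8 ratio of 1.76-fold (1.67 to 1.85) did not reach 2-fold. Between RC4 and RC8, where the 5 genes above were 2.08-fold to 8.78-fold lower, Nqo1 was 1.75-fold higher (1.66 to 1.84). The median of all genes was 0.26 higher in RC8 than in RC4 on the log2 scale.

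**Figure D3:**
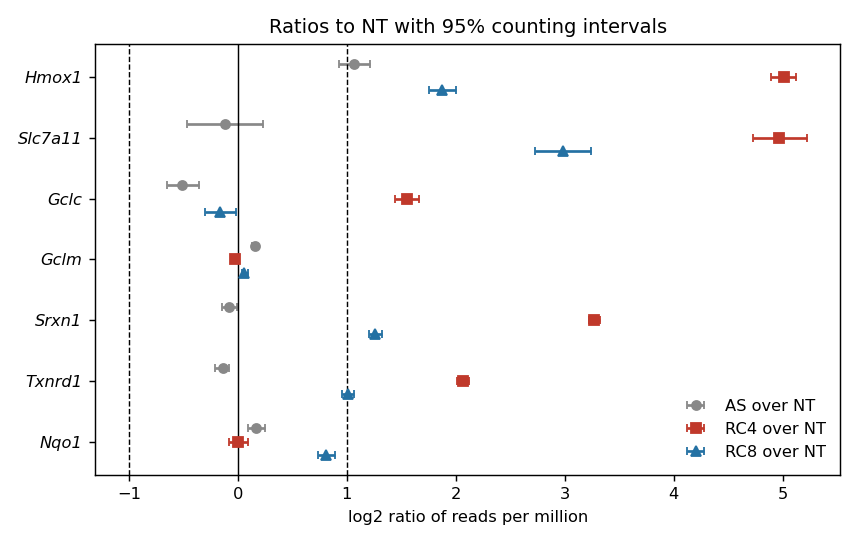
Log2 ratios of RPM over NT for the 7 genes in AS (grey circles), RC4 (red squares) and RC8 (blue triangles), with 95% counting intervals as bars. Dashed lines mark 2-fold in either direction. Hmox1 (5.01) and Slc7a11 (4.97) reach the highest RC4 ratios, and Nqo1 (0.81) has its highest ratio in RC8. Gclm is drawn by its uncertain gene count.

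In NT the order of levels was Gclm, Txnrd1, Srxn1, Nqo1, Gclc, Hmox1 and Slc7a11, and no neighbours had overlapping counting intervals. In AS the intervals of Txnrd1 (144 to 155) and Srxn1 (136 to 145) overlapped, and Hmox1 had passed Gclc. In RC4 the order was Srxn1, Gclm, Hmox1, Txnrd1, Slc7a11, Gclc and Nqo1, again without overlap between neighbours. Hmox1 moved from the sixth place to the third, with 888 RPM (876 to 900) against 27.6 RPM (25.5 to 29.8) in NT. In RC8 the order was Gclm, Srxn1, Txnrd1, Nqo1, Hmox1, Slc7a11 and Gclc. Gclm stands in these orders by its uncertain gene count, and at its 3′-most exon, with 60.4 RPM in NT and 126 RPM in RC4, it would be the fourth and the fifth, with Hmox1 the second in RC4. With 1 library per condition, whether these neighbours differ between cultures could not be tested.

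**Figure D4:**
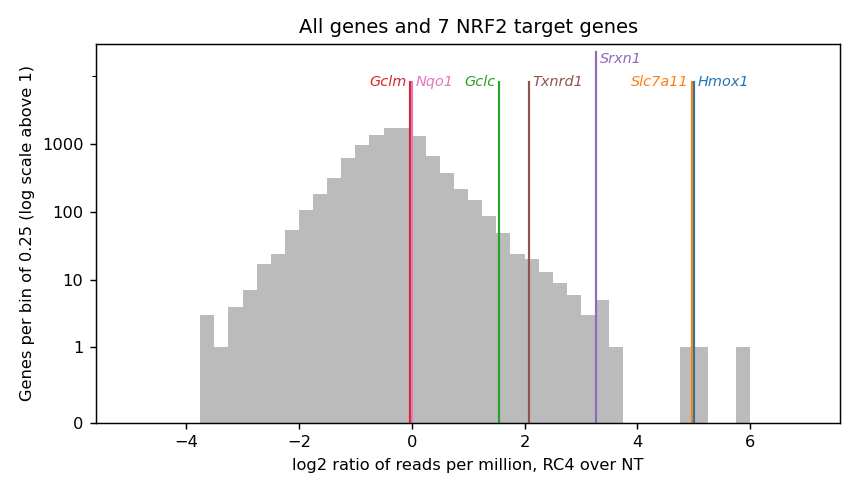
Number of genes by log2 ratio of RPM in RC4 over NT, in bins of 0.25, for all 10081 genes of the table (grey, log axis above 1), with the 7 NRF2 target genes as vertical lines. Most genes lie around the median of −0.30. Hmox1, Slc7a11 and Srxn1 stand at 5.01, 4.97 and 3.27, in the sparse right tail. Gclm, by its uncertain gene count, and Nqo1 stand at −0.03 and 0.00.

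The PAS tables give the share of a gene's reads that the authors' model assigned to each annotated PAS. Reads of this assay lie near a PAS and need not reach it, so the ends themselves were not observed. Hmox1 had 1 PAS in all 3 tables. The model keeps a small set of PASs, selected at a proportion of 5%, so 1 listed PAS need not mean 1 kind of 3′ end. A gene with more than 1 PAS was counted as moved when the share of any PAS differed by at least 10 percentage points from NT. In AS this held for 0 of 2 members with more than 1 PAS, against 15.3% of all such genes, and in RC4 for 0 of 5, against 29.1%. In RC8 it held for 1 of 5, Slc7a11, against 27% of genes. A share of 1 in 5 is near that background. Gclm is among the 5 in RC4 and in RC8 through its intronic PAS, whose reads are uncertain. The PASs listed for a gene differ between tables, and Slc7a11, Txnrd1 and Gclm had a single PAS in the AS table and 2 or more in the others.

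Slc7a11 had 4 PASs in the RC4 and RC8 tables, all in its 3′-most exon. Both distal ones lie 158 nt apart, and the others 6144 and 6976 nt upstream of the most distal. In NT the most proximal PAS, at position 50175834, held 11.9% of the reads (Wilson interval 7.57 to 18.2), from 17 of 143 reads. After 4 h of recovery its share was 13.5% (12.5 to 14.5), and after 8 h it was 35.7% (33 to 38.5). The most distal PAS, at 50168858, accounted for 57.4% in NT by the RC4 table (49.2 to 65.2), 50.5% after 4 h (49 to 52) and 39.6% after 8 h (36.8 to 42.5). The proximal share was thus 23.8 points higher in RC8 than in NT, with a counting error of 3.05 points. The difference between the recovery libraries rests on more reads, and there it was 22.2 points with a counting error of 1.5. In levels, the proximal PAS had 26.9 RPM in RC4 and 17.8 RPM in RC8, whereas the most distal had 101 RPM and 19.8 RPM. The 30 bases up to each of these 2 ends, chr3:50175834-50175863 and chr3:50168858-50168887 of mm9 on the minus strand, are shown with the hexamer AATAAA in capitals where present.
Slc7a11 proximal PAS: gtctataaacatagctttacctactgggga
Slc7a11 most distal PAS: tttctatAATAAAtactgctttaagctgaa
Of all 16 PASs of the members, 8 had AATAAA in the 40 nt before them and the other 8 had neither AATAAA nor ATTAAA.

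**Figure D5:**
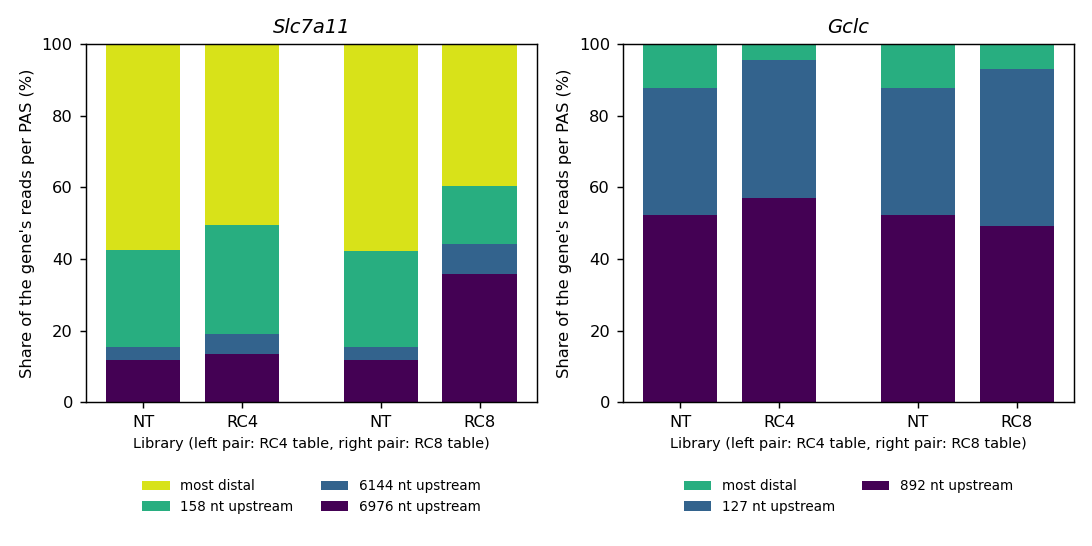
Share of the reads of Slc7a11 (left) and Gclc (right) at each PAS, in percent, in NT and RC4 from the RC4 table and in NT and RC8 from the RC8 table. Colours give the distance of a PAS from the most distal one; in Slc7a11 the PAS 6976 nt upstream holds 11.9% in NT and 35.7% in RC8, and in Gclc the most distal PAS holds 12.4% in NT and 4.47% in RC4.

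Gclc had the same 3 PASs in all tables, within 892 nt of its 3′-most exon. Its most distal PAS, at position 77642292, held 12.3% in NT and 5% in AS, 12.4% in NT and 4.47% in RC4, and 12.3% in NT and 7.15% in RC8. The differences were −7.3, −7.93 and −5.15 points, with counting errors of 1.4, 1.17 and 1.42, none past 10 points. In RC4 this PAS had 1.06-fold the NT level (0.808 to 1.38), while the PASs 892 and 127 nt upstream had 3.19-fold (2.87 to 3.54) and 3.2-fold (2.82 to 3.64). As the reads were assigned, the higher Gclc level in RC4 was at the 2 upstream PASs. The most distal PAS lies only 127 nt from its neighbour, and the intervals leave out the error of the assignment.

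In Txnrd1 and Srxn1 the minor PAS was the proximal one. In Txnrd1 the PAS 1091 nt upstream held 4.88% of the reads in NT, 9.75% in RC4 and 6.83% in RC8, and its RC4 level was 8.36-fold that of NT (7.17 to 9.8), against 3.97-fold (3.83 to 4.12) at the distal PAS. In Srxn1 the RC8 table lists a PAS 1581 nt upstream with 3.17% in NT and 5.7% in RC8. Its level was 4.32-fold that of NT (3.49 to 5.38), against 2.33-fold (2.24 to 2.43) at the distal PAS. In Nqo1, by contrast, the proximal PAS, 183 nt upstream, held 9.46% in NT, 5.97% in AS and 7.05% in RC4. These differences were between 1.95 and 4.9 points and thus under the 10-point threshold, although larger than their counting errors of 0.397 to 0.803 points.

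Promoters of the RefSeq table, 250 bases before to 50 after a start on GRCm38.p6, were at hand for 6 of the 8 genes. Hmox1 and Gclc had none. The core TGACNNNGC occurred in 3 of their 8 listed promoters, 1 each of Gclm, Srxn1 and Txnrd1, and in 12.4% of all 32851 promoters. In Gclm it lies on the minus strand, and the same stretch of mm9, chr3:121948321-121948360, is shown. In Srxn1 the match lies just after the start, in chr2:152105542-152105571, and in Txnrd1 in 1 of 3 listed promoters, in chr10:82859098-82859138, both on GRCm38.p6. All 3 stretches are given, with the match in capitals. Whether the core goes with a higher level was not tested.
Gclm promoter: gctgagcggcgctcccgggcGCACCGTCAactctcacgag
Srxn1 promoter: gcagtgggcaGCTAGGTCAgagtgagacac
Txnrd1 promoter: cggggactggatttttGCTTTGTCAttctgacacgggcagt
Nqo1, Slc7a11 and Osgin1 had 0 matches in these windows, which says only that the letters are not there. In the longer mm9 window Slc7a11 had 1 core match in the last 1 kb before its gene start.

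The wider NRF2 pathway was described with a list of 75 other genes, of which 61 are listed in at least 1 table. The list too was chosen with earlier results of these data known, so its shares are a description and not a test. In AS 1 of 60 was at least 2-fold higher and 1 lower. In RC4 6 of 61 were higher and 2 lower, and in RC8 9 of 60 were higher and 1 lower. The median log2 ratio of the list was 0.03, 0.11 and 0.26, beside −0.04, −0.30 and 0.01 for all genes. The higher genes were 1.67%, 9.84% and 15% of the list in AS, RC4 and RC8, beside 0.622%, 3.69% and 2.97% of all genes. The lower ones were 1.67%, 3.28% and 1.67% of the list, beside 3.22%, 13.4% and 3.53% of all genes. When RC4 was scaled to the median gene, 14 of the list were higher and none lower, against 6.38% of all genes in either direction under that scaling.

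Among sensor and partner genes, Nfe2l2 itself was at 75.8 RPM in NT, 80.9 RPM in AS, 77.8 RPM in RC4 and 63.5 RPM in RC8. The level of the activator's own message thus stayed between 1.07-fold above and 1.19-fold below NT. Keap1, the adaptor that targets NRF2 for degradation, was at 96.1 RPM in NT, 100 RPM in AS, 60.7 RPM in RC4 and 136 RPM in RC8. Bach1, the repressor that competes with NRF2, was at 17.5, 10.5, 34.2 and 15.4 RPM, and thus 1.66-fold lower in AS (1.41 to 1.96) and 1.95-fold higher in RC4 (1.73 to 2.21). Neither value reached 2-fold. Maff, a small MAF protein, was 3.47-fold higher in RC4 (3.11 to 3.87). Mafk, another, was 2.1-fold lower in AS (1.49 to 3), but this rests on a 0 in the first count column of AS. The first column had 53 reads in NT and 0 in AS, and the second 55 and 51, which is 1.07-fold lower.

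Sqstm1 encodes p62, the autophagy adaptor that binds KEAP1, and had the highest ratio of the list. It was at 160 RPM in NT, 1199 RPM in RC4 and 581 RPM in RC8, 7.52-fold (7.26 to 7.79) and 3.65-fold (3.51 to 3.78) over NT. Sequence next to 1 of its 2 PASs has 1 further copy in mm9, at 96% identity. Chac1, which degrades glutathione and is better known as a target of ATF4, was 2.68-fold higher in AS (2.31 to 3.12) and 2.91-fold in RC4 (2.51 to 3.38). Ptgr1, a reductase of reactive alkenals, was 2.46-fold (2.36 to 2.57) and 3.66-fold (3.52 to 3.81) above NT in RC4 and RC8. Akr1c13, an aldo-keto reductase, was 3.33-fold (2.41 to 4.66) and 3.55-fold (2.59 to 4.96) above NT, but its 50 reads in NT are all in the second count column. That column alone gave 1.63-fold and 1.75-fold.

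Several genes of the list had their highest level in RC8, as Nqo1 did. Fth1 and Ftl1 encode the chains of ferritin, which stores the iron that haem oxygenase sets free. Fth1 was at 2518 RPM in NT, 4625 RPM in RC4 and 5670 RPM in RC8, and Ftl1 at 563, 1213 and 1341 RPM. Both passed 2-fold in RC8, at 2.25-fold (2.23 to 2.27) and 2.38-fold (2.33 to 2.43), although sequence next to the Ftl1 PASs has 5 further copies in mm9. Blvrb, a biliverdin reductase, was at 47.9 RPM in NT, 90.5 RPM in RC4 and 115 RPM in RC8. Prdx1, a peroxiredoxin and substrate of sulfiredoxin, was at 2166, 4005 and 5133 RPM. Taldo1, of the pentose phosphate pathway, was at 207, 322 and 496 RPM, and Gsta4, a glutathione transferase, at 21, 35.7 and 52.6 RPM. In RC8 these 4 genes were 2.37-fold to 2.51-fold above NT. By group, the genes at least 2-fold higher in RC8 were 3 of 6 for haem and iron, 2 of 11 for quinone, carbonyl and aldehyde reduction, 1 of 13 for glutathione, 1 of 4 for thioredoxin and peroxiredoxin, 1 of 6 for NADPH supply, 1 of 8 adaptors and others, 0 of 3 exporters and 0 of 9 sensors and transcription factors, against 2.97% of all genes.

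On the lower side stood Idh1, the cytosolic isocitrate dehydrogenase that supplies NADPH, at 336 RPM in NT, 157 RPM in RC4 and 111 RPM in RC8. It was 2.14-fold lower (2.06 to 2.23) and 3.03-fold lower (2.9 to 3.17). Akr1b3, aldose reductase, was 2.45-fold lower in RC4 (1.89 to 3.19), with 3 further copies of its 3′ sequence in mm9.

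To find genes with a like course, the distance between the 3 log2 ratios was taken over the 9875 genes in all tables, as a description of 4 libraries. Nearest to Hmox1 outside the NRF2 target genes were Mt2 at a distance of 1.56, Sirt6 at 1.60, Hspa1b at 1.71, Zfand2a at 1.92 and Havcr2 at 1.93. Mt2 encodes a metallothionein and had log2 ratios of 1.25, 3.45 and 1.90 in AS, RC4 and RC8, and Hspa1b, an inducible HSP70, had 2.37 and 5.80 in AS and RC4. Among the 7 genes the closest to Hmox1 was Slc7a11, at 1.62. The most alike pair of all was Gclm and Nqo1 at 0.75, with the gene count of Gclm as it stands, and Srxn1 and Txnrd1 followed at 1.23. Nearest to the median course of the 7 genes were Gab2 at 0.21, Dusp4 at 0.27, Kctd11 at 0.29, BC022687 at 0.33 and Prkx at 0.34.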

How the data were processed

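NIH3T3 cells gave 1 QuantSeq FWD library for each of NT, AS, RC4 and RC8. The authors trimmed reads with bbmap, mapped them to mm9 with STAR (2.5.2a in the submitters' processing notes), allowed reads that map to several places, and ran MAAPER with PolyA_DB v3 on genes with at least 50 reads, selecting PASs at a proportion of 5%. Counts of reads per gene were deposited by the authors without normalization, in 2 columns per library, and the fraction of a gene's reads at each PAS was deposited per library. Their P values and their RLD and RED scores of each comparison are also in the tables and were not used. REV libraries were not analysed here.

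What the 2 count columns are is not given in the sources used here, and they were added, since 27 of 28 member counts split between them within the 95% interval of the library's split. RPM were computed over the genes of a table, ratios received exact conditional binomial intervals, and shares Wilson intervals with the gene count as number of reads, at 22.4 M to 23 M reads per library. The ratio and its interval were checked on simulated counts with Poisson counting error only. These counts hold neither PCR duplicates nor a spread between cultures. The columns were assigned to NT and the treated library by their condition number, NT being the column shared by all tables. Members and lists were chosen with earlier results of these data known. Genes named were the members, the pathway genes past 2-fold, Nfe2l2, Keap1, Bach1 and the 5 nearest courses. Copies were sought with BLAST 2.17.0, and gene starts were those of GENCODE vM1 on mm9. Alternatives were other scalings (edgeR 4.0.16 for TMM), single count columns, other gene filters and other thresholds, and, chosen after seeing the data, Gclm by its 3′-most exon and genes with reads in all count columns. Python 3.11.15, numpy 2.4.6 and scipy 1.17.1 were used.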

Additional observations from a re-analysis of the deposited data

How the results depend on the processing

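With 1 library per condition, depth limits counting error only, most of all for Slc7a11 in NT. The members at least 2-fold higher numbered 1 in AS in all alternatives, 4 to 6 in RC4 and 3 to 4 in RC8. At 1.5-fold 1, 5 and 5 members were higher in AS, RC4 and RC8, beside 1.88%, 8.04% and 11.3% of all genes. Without genes under 200 reads Slc7a11 was left out in RC4 and RC8, and the second count column put Txnrd1 in RC8 under 2-fold. None was lower in any alternative. Of 146 member ratios under alternatives, 125 stayed within the counting interval and no gene past 2-fold took the other sign. Only reads of the 3′-most exon for Gclm, an alternative chosen after seeing the data, gave 6 members in RC4 and 4 in RC8.

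The pathway list depended more on the settings, and the causes were not tested unless the setting itself shows them. Scaled to the median gene and by TMM, 14 and 12 of its genes were higher in RC4 and 0 and 1 lower, in place of 6 and 2. This scaling raises all RC4 ratios alike. Of all genes 6.38% and 6.23% were then higher. At 1.5-fold, 18 were higher and 6 lower in RC4, 16 and 4 in RC8, and 3 lower in AS. Of all genes 8.04% were then higher and 31.8% lower in RC4, 11.3% and 11.9% in RC8, and 11.4% lower in AS. The first and the second count column alone, a minimum of 200 reads and, chosen after seeing the data, only genes with reads in all count columns left 0 lower in AS, where Mafk has a 0 in the first column, and in RC4 1 was lower over genes in all 3 tables and with 200 reads. At 5 percentage points, 1, 3 and 2 members had a moved PAS in the AS, RC4 and RC8 tables, in place of 0, 0 and 1, against 42.6%, 59.2% and 58% of all genes with more than 1 PAS. No paired analysis was possible because each condition has 1 library.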
